A study of Danio rerio with 21 samples.

Results

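Immediate early genes are transcribed within minutes of a stimulus, without the need for newly made protein. The 9 immediate early response genes described here were the rows of the count table with the symbols *egr1*, *egr2a*, *junba*, *junbb*, *fosab*, *fosb*, *fosl1a*, *btg2* and *ier2b*, 9 of 36351 genes in all. Each symbol matched 1 row. The symbols were chosen by measured values, but which values chose each symbol is not recorded. The difference between ZKO and WT larvae at 5 dpf (days post-fertilization) was taken to be the one, and every difference that uses ZKO or WT pools is therefore given as a description with no test. Levels in the other groups were also known at that time, so the p-values given for those groups may not be free of the choice.

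These genes encode mostly transcription factors. Fos and Jun proteins pair to form AP-1, and Egr proteins bind DNA through zinc fingers. In vertebrates their transcription is switched on by the MAP kinase cascade acting on SRF and its partners and by CREB, and it falls again quickly because the transcripts are unstable. They are known as markers of growth factor signalling, injury and neuronal activity.

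The larvae were zebrafish of the EK strain from 1 *pomgnt2* line, whose mutant allele carries frameshift indels in both coding exons. *pomgnt2* encodes a glycosyltransferase that elongates the sugar chains of α-dystroglycan. Het X Het crosses (mother *pomgnt2* +/-) gave WT (+/+), Het (+/-) and ZKO (-/-) larvae, collected at 5 dpf. ZKO females (-/-) bred with Het males gave MHet (+/-) and MZKO (-/-) larvae, collected at 5 and at 10 dpf. Each of the 7 groups had 3 pools, and each pool held 4 to 6 whole larvae. Larvae were genotyped alive at 4 dpf, and those of 5 dpf were sorted, euthanized in Tricaine and frozen on the next day. Embryos were raised in egg water with methylene blue, and no experimental treatment is described. The kind of cross and the mother's genotype always went together and cannot be told apart, nor can age be told apart from the batch given in the labels, which was 1 at 5 dpf and 2 at 10 dpf. Larvae of 10 dpf were also housed on the aquarium system after the dish stage, and were collected longer after genotyping. Rearing place and time since genotyping therefore cannot be told apart from age either. Nothing states that the 3 pools of a group came from separate clutches, so p-values measure the spread between these pools, which may be technical.

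The total of counts over all genes ranged from 16959935 to 22439739 per pool. Levels are given as CPM, counts relative to library size, scaled between pools by edgeR's TMM factors. They are not corrected for gene length, so that levels of different genes are not compared. A count of 3, taken as the lowest detectable level, was 0.133 to 0.196 CPM and covers counting error only. The mutated gene *pomgnt2* was counted in every pool, at 17.3 ± 0.82 CPM (SD, n = 3) in WT and 18.2 ± 1.14 in ZKO at 5 dpf. Its MZKO pools at 5 dpf (18.4 to 18.7 CPM) lay above the MHet pools (14.1 to 17.7), and at 10 dpf the pools of MZKO (13.1 to 19.9) and MHet (15.4 to 19.8) overlapped. Skeletal muscle, neuron, lens and retina, liver and skin markers were detected in every group, as whole larvae would give. In such bulk samples, fewer cells of a type and less RNA per cell cannot be told apart.

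**Figure D1:**
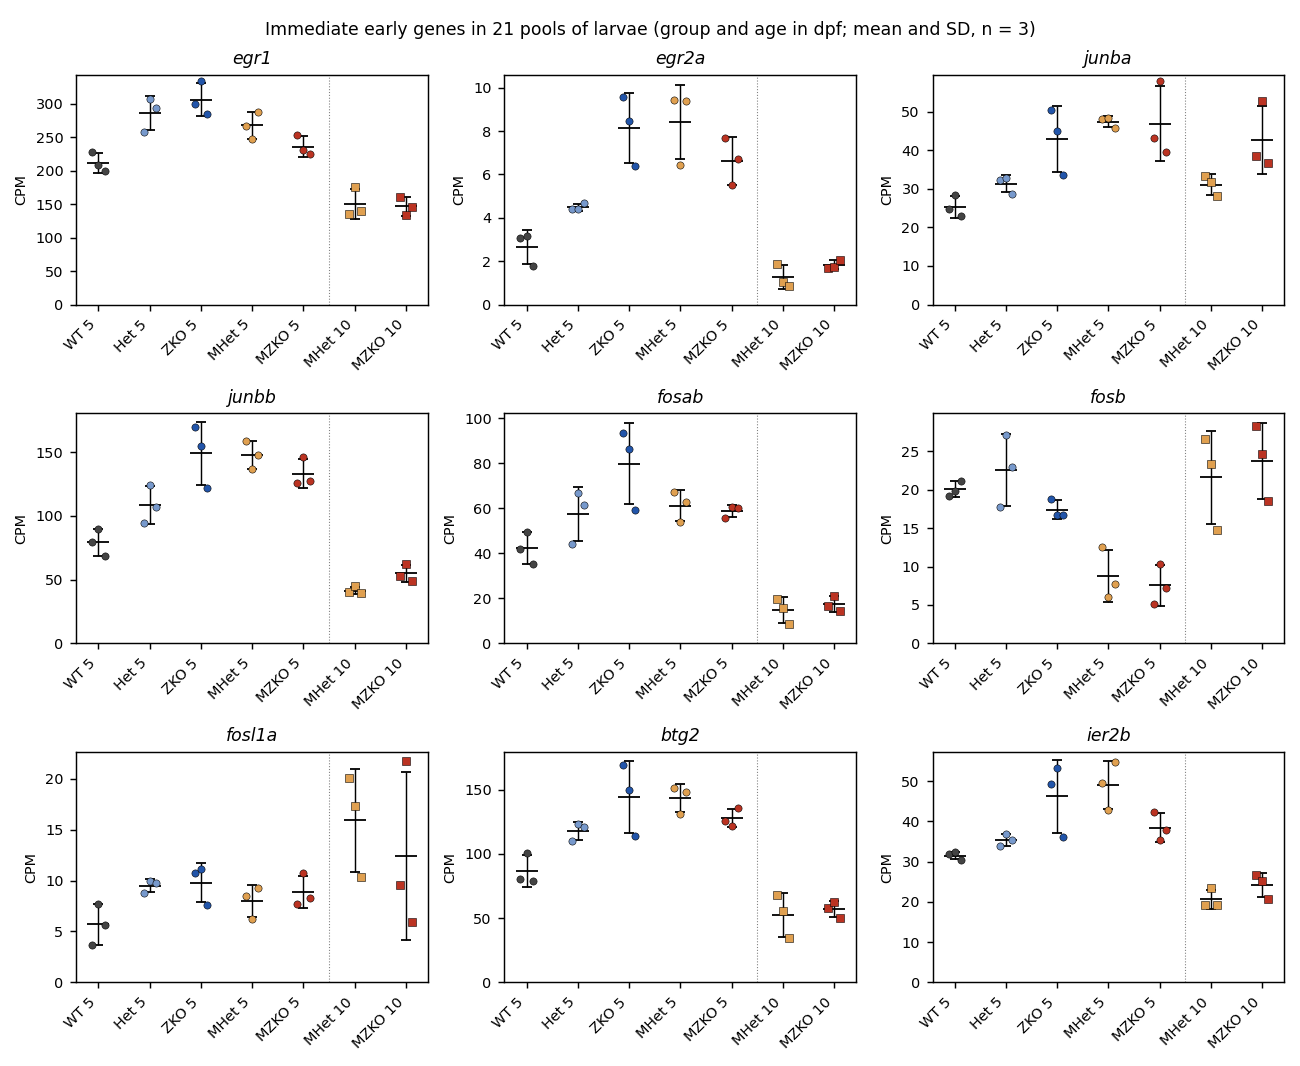
CPM of the 9 genes (vertical axes, each starting at 0) in the 21 pools. Circles are pools at 5 dpf and squares pools at 10 dpf, the wide bar is the group mean and the whiskers are 1 SD (n = 3). In 8 of the 9 genes the WT mean is the lowest of the 5 dpf groups, and *fosb* is the exception, with its lowest means in MHet (8.8 CPM) and MZKO (7.58 CPM). WT pools are taken to have helped choose the genes, so nothing is read from that count.

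Among the Egr genes, *egr2a* (LL0000009457) showed the widest relative range. Its mammalian counterpart, Egr2 or Krox20, is required in the mouse for hindbrain segmentation and for myelination by Schwann cells. It stood at 3.07, 3.16 and 1.77 CPM in the WT pools, 4.4, 4.4 and 4.68 in Het pools, and 9.56, 8.44 and 6.37 in ZKO pools. In the offspring of ZKO females at 5 dpf it stood at 9.42, 6.45 and 9.4 CPM in MHet pools and 7.66, 5.49 and 6.71 in MZKO pools. At 10 dpf it was 1.89, 1.03 and 0.85 CPM in MHet pools and 1.69, 1.75 and 2.07 in MZKO pools. The WT, Het and ZKO pools did not overlap, and neither did the Het pools and those of any other group. MZKO, ZKO and MHet at 5 dpf, the highest groups, overlapped as neighbours in the order of means, as did WT and both groups at 10 dpf. The gene was thinly counted, with 13 to 212 reads per pool.

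*egr1* (LL0000009456), the Egr gene induced by most growth factors, had a mean of 211 ± 14.2 CPM for WT, 286 ± 25.6 for Het and 306 ± 24.9 for ZKO (SD, n = 3 each). In MHet and MZKO at 5 dpf it had 267 ± 20.5 and 236 ± 15.2 CPM, and at 10 dpf 150 ± 22.5 and 147 ± 14.2. All pools at 10 dpf (133 to 176 CPM) lay below all pools at 5 dpf, of which the lowest was a WT pool at 199 CPM. Within 5 dpf, each group overlapped its neighbour in the order of means, which ran from WT over MZKO, MHet and Het to ZKO.

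Of the JunB genes, both of which encode AP-1 subunits of the Jun family, *junba* (LL0000013045) stood at 24.8, 28.4 and 22.9 CPM in WT pools, 32.4, 32.9 and 28.8 in Het pools and 50.4, 45 and 33.5 in ZKO pools. In MHet at 5 dpf its pools were close together, at 48.1, 48.3 and 45.8 CPM, while those of MZKO spread from 39.5 to 57.9. At 10 dpf it was 33.4, 31.7 and 28.2 CPM in MHet pools and 38.6, 52.8 and 36.8 in MZKO pools. The WT, Het and ZKO pools again did not overlap, but both gaps were narrow. The lowest Het pool (28.8 CPM) was only just above the highest WT pool (28.4), and the lowest ZKO pool (33.5) above the highest Het pool (32.9). *junba* was the gene in which MZKO larvae at 10 dpf came closest to the 5 dpf level.

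*junbb* (LL0000013046) stood at 79.5, 89.7 and 68.6 CPM in WT pools, 94.6, 124 and 107 in Het pools and 170, 155 and 122 in ZKO pools. In MHet and MZKO at 5 dpf it was 159, 137 and 148 CPM and 126, 146 and 127 CPM. At 10 dpf it was 40.3, 44.7 and 39.4 CPM in MHet pools and 52.7, 62.5 and 49.3 in MZKO pools. The order of means ran upwards from MHet and MZKO at 10 dpf over WT and Het to MZKO, MHet and ZKO at 5 dpf. Each of the 4 lowest groups was separate from the next one up, and the 3 highest overlapped.

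The Fos genes did not share 1 pattern. *fosab* (LL0000010566), the zebrafish gene named for c-Fos, had means of 42.3 ± 7.15 CPM for WT, 57.5 ± 12 for Het, 79.8 ± 17.9 for ZKO, 61.3 ± 6.88 for MHet and 58.9 ± 2.64 for MZKO at 5 dpf, and 14.7 ± 5.73 and 17.4 ± 3.44 for MHet and MZKO at 10 dpf (SD, n = 3 each). The 10 dpf pools, at 8.5 to 21.2 CPM, were all below the lowest 5 dpf pool of 35.3. Neighbouring groups within 5 dpf overlapped.

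*fosb* (LL0000010567), which in the mammalian brain is induced by neuronal activity, stood at 19.2, 19.9 and 21.2 CPM in WT pools, 17.7, 27.1 and 22.9 in Het pools and 18.8, 16.7 and 16.7 in ZKO pools. In the offspring of ZKO females at 5 dpf it was 12.6, 6.1 and 7.7 CPM in MHet pools and 5.11, 10.4 and 7.22 in MZKO pools. At 10 dpf it was 26.6, 23.4 and 14.8 CPM in MHet pools and 28.3, 24.6 and 18.5 in MZKO pools. The 6 pools of MHet and MZKO at 5 dpf were the lowest 6 of all 21, and the other 5 groups lay between 14.8 and 28.3 CPM.

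*fosl1a* (LL0000010568), the gene for the Fos-related antigen Fra-1, was the least even. Its means were 5.69 ± 2.03 CPM for WT, 9.47 ± 0.637 for Het, 9.78 ± 1.93 for ZKO, 8.01 ± 1.58 for MHet and 8.91 ± 1.61 for MZKO at 5 dpf (SD, n = 3 each). At 10 dpf it stood at 20.1, 17.3 and 10.3 CPM in MHet pools and 9.54, 21.7 and 5.94 in MZKO pools. Every group overlapped its neighbour in the order of means.

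The last pair of genes belongs to neither the AP-1 nor the Egr family. *btg2* (LL0000002063) encodes an antiproliferative protein that recruits the deadenylase complex CCR4-NOT. Its means were 86.7 ± 12.4 CPM for WT, 118 ± 6.75 for Het, 144 ± 27.9 for ZKO, 143 ± 10.6 for MHet and 128 ± 7.03 for MZKO at 5 dpf, and 52.6 ± 17.3 and 57 ± 6.29 for MHet and MZKO at 10 dpf (SD, n = 3 each). *ier2b* (LL0000012475), which encodes a nuclear protein of the IER family, stood at 31.8, 32.3 and 30.5 CPM in WT pools, 34, 36.9 and 35.5 in Het pools, 49.4, 53.4 and 36.1 in ZKO pools, 49.5, 42.8 and 54.8 in MHet pools and 42.3, 35.4 and 37.8 in MZKO pools at 5 dpf. At 10 dpf *ier2b* was 19.1, 23.4 and 19.3 CPM in MHet pools and 26.6, 25.2 and 20.8 in MZKO pools. In both genes all 10 dpf pools lay below all 5 dpf pools, and in both the Het pools lay above the WT pools without overlap.

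Differences among the offspring of Het X Het crosses that use WT or ZKO pools are described without a test. Of the 9 genes, 7 had ZKO pools entirely above the WT pools, which was true of 8.83% of the 24846 tested genes. *fosb* had ZKO pools entirely below the WT pools (10.1% of all genes), and *fosl1a* pools overlapped. The ratio of the ZKO to the WT level was 3.05 for *egr2a*, 1.9 for *fosab*, 1.89 for *junbb*, 1.73 for *fosl1a*, 1.7 for *junba*, 1.67 for *btg2*, 1.48 for *ier2b*, 1.46 for *egr1* and 0.873 for *fosb*. With each WT or ZKO pool left out in turn, the log2 ratio of *egr2a* lay between 1.39 and 1.75. No sign turned for any of the 9 genes in these fits. The summed level of 9 liver markers was 2470 to 5640 CPM in the WT pools and 1700 to 1860 in the ZKO pools. All 9 were lower in ZKO and none was at 0. Also lower were all 9 tested neutrophil, 8 of 10 macrophage and 8 of 10 vascular markers. So were 10 of 12 exocrine pancreas and 5 of 7 tested erythrocyte markers. Higher in ZKO were all 14 skeletal muscle, all 10 lens and retina and 11 of 12 neuron markers. Skin markers were split, with 5 higher and 6 lower. The part of all these markers in the 9 genes' values was not tested.

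Het larvae, which carry 1 mutant copy, lay between WT and ZKO in the means of 8 genes. All 9 means were higher in Het than in WT, by a log2 ratio of 0.17 to 0.75, and 7 genes had Het pools entirely above the WT pools against 7.97% of all genes. The exceptions were *fosab* and *fosb*, whose pools overlapped. Between ZKO and Het, *egr2a* (log2 ratio 0.86) and *junba* (0.46) had ZKO pools entirely above the Het pools, 2 of the 9 genes against 5.31% of all genes, and the pools of the other 7 overlapped. These comparisons share the WT or ZKO pools taken to have chosen the genes, so that nothing is read from their counts. The *pomgnt2*-null larvae of both kinds of cross can be set beside each other in the same way. MZKO pools lay entirely below ZKO pools for *fosb* (log2 ratio -1.20) and *egr1* (-0.38), 2 of the 9 genes against 19.6% of all genes.

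The larvae of 1 genotype, +/-, from mothers of different genotype gave the first comparison that did not use ZKO or WT pools in its difference. In MHet against Het at 5 dpf, *egr2a* rose and *fosb* fell. In the quasi-likelihood fit of edgeR to the 15 pools of 5 dpf, a gene was called a DEG at an adjusted p below 0.01 together with a log2 fold change above 0.7 in size, and p was adjusted over 24846 genes. *egr2a* had 8.42 ± 1.71 CPM in MHet and 4.49 ± 0.159 in Het (SD, n = 3 each). Its log2 fold change was thus 0.91 (SE 0.21, edgeR adjusted p = 0.0042). *fosb* had 8.8 ± 3.39 CPM in MHet and 22.6 ± 4.72 in Het, a log2 fold change of -1.34 (SE 0.26, edgeR adjusted p = 0.0029). The 2 DEGs among the 9 genes stand against 3.79% of all genes tested, 462 upregulated and 479 downregulated.

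Another 3 of the 9 genes passed an adjusted p of 0.05 in MHet against Het but stayed under the fold threshold, all of them higher in MHet. They were *junba* (log2 fold change 0.60, SE 0.14, edgeR adjusted p = 0.0068), *ier2b* (0.48, SE 0.12, edgeR adjusted p = 0.0066) and *junbb* (0.46, SE 0.12, edgeR adjusted p = 0.014). With *egr2a* and *fosb*, 5 of the 9 genes passed 0.05, against 16.9% of all genes. The MHet pools were entirely above the Het pools for *egr2a*, *junba*, *junbb*, *ier2b* and *btg2*, 5 genes against 18.1% of all genes. They were entirely below for *fosb*, 1 gene against 18.6%. The remaining log2 fold changes were 0.29 for *btg2* (SE 0.12, edgeR adjusted p = 0.10), 0.10 for *fosab* (SE 0.19), -0.09 for *egr1* (SE 0.09) and -0.23 for *fosl1a* (SE 0.22), the last 3 at edgeR adjusted p of 0.51 to 0.77. The median over the 9 genes was 0.29, against -0.0020 over all genes.

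Both calls were close to the threshold of 0.01. *egr2a* kept its call without MHet pool 2 (edgeR adjusted p = 0.0028) and lost it without any of the other 5 Het and MHet pools (edgeR adjusted p = 0.015 to 0.028, log2 fold change 0.82 to 0.95). *fosb* lost its call without Het pool 2 or Het pool 3 (edgeR adjusted p = 0.012 each) or MHet pool 3 (0.017), at log2 fold changes of -1.20 to -1.33. *junbb* passed 0.05 in 3 of the 6 fits with a pool left out, and missed it without Het pool 1, Het pool 3 or MHet pool 1 (edgeR adjusted p = 0.052 to 0.07). *junba* and *ier2b* passed 0.05 in all 6.

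**Figure D2:**
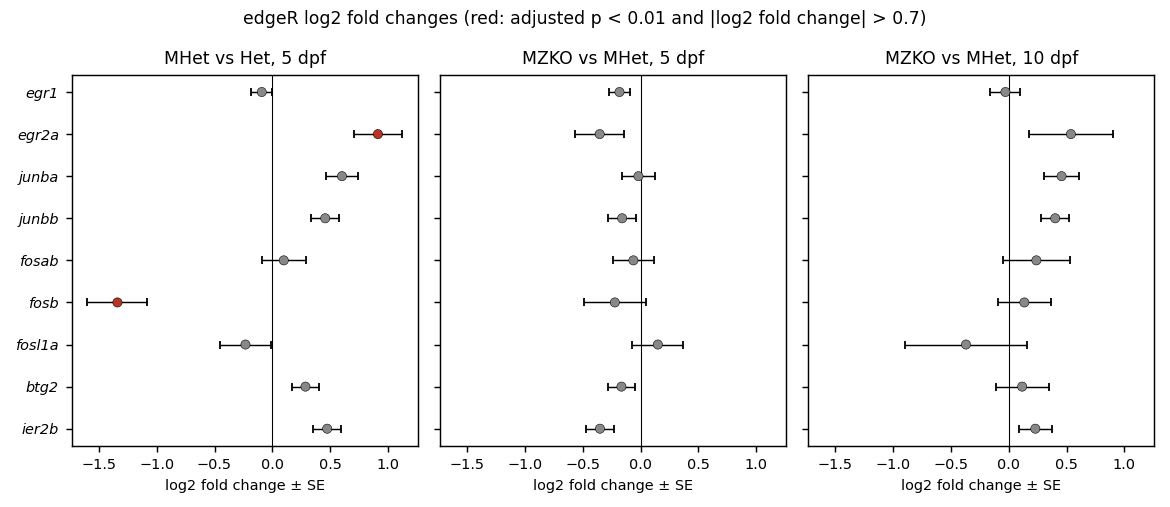
Log2 fold changes of the 9 genes in the 3 tested comparisons of genotype, with bars of 1 SE from edgeR. Red points are DEGs, which are *egr2a* (0.91) and *fosb* (-1.34) in MHet against Het, and no gene is red in MZKO against MHet at either age.

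Other immediate early genes were read from a list of 71 symbols that holds none of the 9, of which 61 were found and tested. In MHet against Het, 2 rose, 7 fell and the rest were not called, against 3.79% of all genes called. Their median log2 fold change was -0.17. The genes that fell included the second c-Fos gene *fosaa*, from 41 ± 4.13 CPM in Het to 16.2 ± 0.442 in MHet (SD, n = 3 each; log2 fold change -1.33, SE 0.12, edgeR adjusted p = 3e-08), and *mycb*, a Myc gene (-0.99, SE 0.11, edgeR adjusted p = 2.6e-06). *npas4a*, whose mammalian counterpart is induced in neurons by activity, also fell (-1.11, SE 0.15, edgeR adjusted p = 0.00018). The Krüppel-like factor *klf2b* rose, from 23.4 ± 2.4 to 54.7 ± 6.37 CPM (1.23, SE 0.14, edgeR adjusted p = 1.2e-05). Thus the c-Fos pair was split at 5 dpf, with *fosaa* called lower in MHet and *fosab* at a log2 fold change of 0.10.

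**Figure D3:**
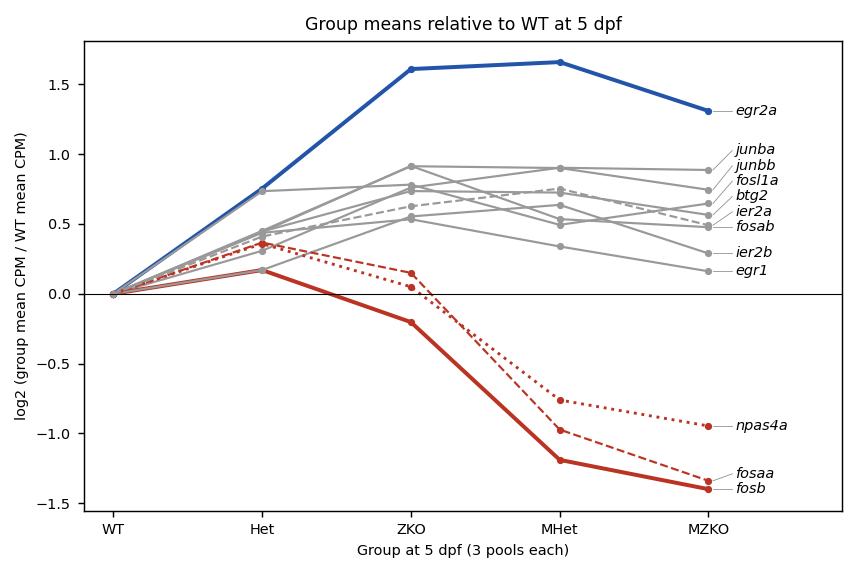
Log2 ratio of each group's mean CPM to the WT mean at 5 dpf, for the 9 genes and for *fosaa*, *npas4a* and *ier2a*, which were added after their values were seen (n = 3 pools per group). The blue line is *egr2a*, the red lines are *fosb* (solid), *fosaa* (dashed) and *npas4a* (dotted), and the red lines lie at -0.76 to -1.19 in MHet while all grey and blue lines lie above 0 there. WT pools are taken to have helped choose the 9 genes, so nothing is read from their lines lying above 0. Against Het, 6 of the 9 genes were higher in MHet and 3 lower, among them *egr1* (log2 fold change -0.09) and *fosl1a* (-0.23).

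Genes that act upstream of the immediate early genes (42 symbols of the MAP kinase cascade, SRF, its partners and CREB factors, 38 found) had 1 DEG of 38 in this comparison, against 3.79% of all genes. *cremb*, a CREM gene, fell from 3.92 ± 0.371 to 2.08 ± 0.203 CPM (SD, n = 3 each; log2 fold change -0.91, SE 0.23, edgeR adjusted p = 0.007), and none rose. Of 12 tested genes of the stress axis and its glucocorticoid targets, 4 fell and none rose. They were the clock gene *per1a* (-2.27, SE 0.14, edgeR adjusted p = 8.8e-11), *klf9* (-2.08, SE 0.23, edgeR adjusted p = 0.00011), *fkbp5* (-1.82, SE 0.18, edgeR adjusted p = 2.3e-05) and *hsd11b2* (-0.91, SE 0.14, edgeR adjusted p = 8.2e-05). The hour of collection of each group is not given, and its part in these values was not tested. Of 13 tested heat shock genes none was called in either direction. At an edgeR adjusted p under 0.05, 5 were higher and 2 lower in MHet, against 16.9% of all genes. The summed level of all 14 listed heat shock genes was 2230 to 2480 CPM in Het and 2700 to 2860 in MHet.

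Markers of the eye and of neurons were lower in the same pools as *fosb*. The summed level of 10 lens and retina markers was 9730 to 11200 CPM in the Het pools and 7090 to 7610 in the MHet pools. Of the 10 markers 8 were lower and 4 were DEGs, against 3.79% of all genes, and none was at 0. The sum of 12 neuron markers was 3110 to 3270 CPM in Het and 2700 to 2720 in MHet, with 11 of 12 lower and none called. None of the neuron markers was at 0 either. All 12 exocrine pancreas markers were lower in MHet too, none of them called, with overlapping sums (1620 to 4140 CPM in Het, 897 to 2240 in MHet). The sum of 14 skeletal muscle markers was higher in MHet (79900 to 89900 CPM) than in Het (75300 to 79600). Of these 14 markers 7 were higher and 7 lower, and 1 was called, lower in MHet. Among the remaining lists, 2 of 9 tested neutrophil, 1 of 10 macrophage and 1 of 11 skin markers were called higher in MHet. Called lower was 1 of 7 tested erythrocyte markers, and no liver or vascular marker was called. At 10 dpf *fosb* had means of 21.6 CPM in MHet and 23.8 in MZKO. The lens and retina sum there was 6410 to 8400 CPM in MHet and 6540 to 8990 in MZKO, still below the Het pools of 5 dpf. The neuron sum at 10 dpf was 2710 to 3450 CPM in MHet and 3450 to 3680 in MZKO. The part of all these markers in the fall of *fosb* was not tested.

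Within the offspring of ZKO females at 5 dpf, MZKO against MHet compares larvae without and with a working zygotic copy. None of the 9 genes was a DEG, against 0.885% of all genes (145 upregulated and 75 downregulated), and none passed an adjusted p of 0.05, against 9.65% of all genes. DESeq2's Wald test called 0 of them. At an unadjusted p under 0.05 in edgeR there was 1 gene of the 9, against 5888 of all 24846 genes. That gene was *ier2b*, at 38.5 ± 3.48 CPM in MZKO and 49 ± 6.06 in MHet (SD, n = 3 each; log2 fold change -0.35, SE 0.12, edgeR adjusted p = 0.058). It was the 1 gene of the 9 whose MZKO pools were entirely below the MHet pools, which held for 16.2% of all genes. Its adjusted p was 0.035 without MHet pool 2 and 0.062 to 0.23 in the other 5 fits with a pool left out. It was also under 0.05 with DESeq2 (adjusted p = 0.047) and with only the compared groups in the edgeR fit (adjusted p = 0.03).

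The other log2 fold changes in MZKO against MHet at 5 dpf were -0.35 for *egr2a* (SE 0.21, edgeR adjusted p = 0.32) and -0.18 for *egr1* (SE 0.09, edgeR adjusted p = 0.22), and between -0.22 and 0.15 for the remaining 6, with edgeR adjusted p of 0.43 to 0.96. *fosl1a* was the 1 gene of the 9 with a higher mean in MZKO. The MHet pools enter this comparison and that of MHet with Het, so that a high MHet pool moves both in opposite directions. Of the 61 other immediate early genes 1 was called, against 0.885% of all genes. It was *cebpd*, a transcription factor gene of the C/EBP family named here after its value was seen. *cebpd* was lower in MZKO (log2 fold change -0.91, SE 0.11, edgeR adjusted p = 1.5e-05). No upstream regulator, stress axis, heat shock or cell type marker gene was called. Lower in MZKO were 12 of 12 exocrine pancreas, 13 of 14 skeletal muscle, 10 of 12 neuron and 8 of 9 liver markers. Of 10 macrophage markers 9 were higher. Sums in MZKO and MHet were 2440 to 2510 and 2700 to 2720 CPM for neuron markers. For lens and retina markers (6 of 10 lower) they were 6190 to 6790 and 7090 to 7610 CPM. The part of these markers in the 9 genes' values was not tested.

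At 10 dpf, MZKO against MHet was tested in the 6 pools of that age, over 23597 genes. These larvae were kept apart by genotype until collection, so that housing and genotype cannot be told apart at this age. Again none of the 9 genes was a DEG, against 0.0424% of all genes (4 upregulated and 6 downregulated), and none passed an adjusted p of 0.05, against 1.67%. The count over all genes, 10, depended on the fit. It was 650 with DESeq2, 545 with all 21 pools in 1 edgeR fit, 212 without MHet pool 2, 47 without MZKO pool 3 and 4 to 14 without 1 of the other pools, and none of the 9 genes was a DEG in any of these fits. DESeq2's Wald test called 0 of the 9. At an unadjusted p under 0.05 in edgeR there were 2 of them, against 4746 of all 23597 genes. Both were JunB genes with MZKO pools entirely above the MHet pools, 2 of the 9 against 12.8% of all genes. *junbb* had 54.8 ± 6.84 CPM in MZKO and 41.5 ± 2.86 in MHet (log2 fold change 0.40, SE 0.12, edgeR adjusted p = 0.097, and 0.04 with all 21 pools in 1 fit), and *junba* 42.7 ± 8.78 and 31.1 ± 2.62 (0.46, SE 0.15, edgeR adjusted p = 0.12; SD, n = 3 each). The log2 fold change of *egr2a* was 0.54 with an SE of 0.36, and those of the other 6 lay between -0.37 and 0.24, with edgeR adjusted p of 0.39 to 0.92.

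In the same pools at 10 dpf the sum of 14 skeletal muscle markers was 43900 to 49300 CPM in MZKO and 63700 to 72300 in MHet, with all 14 lower, none called and none at 0. The sum of 12 exocrine pancreas markers was 1640 to 4580 CPM in MZKO and 7590 to 9840 in MHet, with all 12 lower and none called. Liver markers moved most, at 333 to 681 CPM in MZKO and 1600 to 4020 in MHet for the sum of 9, with all 9 lower at a median log2 fold change of -2.27, none called and none at 0. Vascular (8 of 10), neutrophil (7 of 9 tested), erythrocyte (4 of 6 tested) and skin markers (9 of 11) also leaned lower, with none called. The vascular sum was 69.6 to 77.7 CPM in MZKO and 85 to 89.9 in MHet. Markers of lens and retina (7 of 10 higher), neurons and macrophages leaned the other way, with none called. Of 12 neuron markers 9 were higher in MZKO and 3 lower (sums 3450 to 3680 CPM in MZKO, 2710 to 3450 in MHet). Of 10 macrophage markers 7 were higher and 3 lower (63 to 82.6 CPM in MZKO, 47.2 to 72 in MHet). The part of all these markers in the JunB values was not tested. Of the 60 other immediate early genes tested none was called with edgeR, and none of the upstream, stress axis or heat shock genes.

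Between 5 and 10 dpf most of the 9 genes changed, with the 5 dpf pools of MHet and MZKO being those of the comparisons above. Age, batch, rearing place and time since genotyping cannot be told apart in these differences. In MHet larvae 7 of the 9 were DEGs, 1 higher and 6 lower at 10 dpf, against 13.9% of all 25346 genes in a fit of the 21 pools. The largest fall was that of *egr2a*, from 8.42 to 1.26 CPM (log2 fold change -2.73, SE 0.27, edgeR adjusted p = 3.6e-08). *fosab* fell by 2.05 (SE 0.26, edgeR adjusted p = 1.8e-05) and *junbb* by 1.83 on the log2 scale (SE 0.13, edgeR adjusted p = 1.4e-10). *btg2* (-1.44, SE 0.19), *ier2b* (-1.25, SE 0.13) and *egr1* (-0.84, SE 0.11) fell as well, with edgeR adjusted p of 5.7e-08 to 1.2e-05.

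*fosb* went the other way, from 8.8 to 21.6 CPM in MHet pools (log2 fold change 1.30, SE 0.28, edgeR adjusted p = 0.0015). It missed the threshold without MHet pool 3 of 5 dpf (1.19, edgeR adjusted p = 0.011), the pool whose loss left 6 DEGs in place of 7. At an adjusted p under 0.05 all 9 genes passed, against 37% of all genes. They included *junba*, lower at 10 dpf (-0.61, SE 0.15, edgeR adjusted p = 0.0033), and *fosl1a*, higher and at the limit itself (0.99, SE 0.38, edgeR adjusted p = 0.05). *fosl1a* passed 0.05 only without MHet pool 3 of 10 dpf among the 6 fits with a pool left out (edgeR adjusted p = 0.026 there, 0.076 to 0.17 in the others).

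In MZKO larvae 5 of the 9 genes were DEGs between the ages, 1 higher and 4 lower at 10 dpf, against 19% of all genes. *egr2a* fell from 6.62 to 1.84 CPM (log2 fold change -1.85, SE 0.26, edgeR adjusted p = 3.3e-06), *fosab* by 1.76 (SE 0.25, edgeR adjusted p = 4.7e-05), *junbb* by 1.28 (SE 0.12, edgeR adjusted p = 2.5e-08) and *btg2* by 1.17 (SE 0.19, edgeR adjusted p = 7e-05). *fosb* rose from 7.58 to 23.8 CPM (1.65, SE 0.28, edgeR adjusted p = 0.00016). *egr1* (-0.69, SE 0.11) and *ier2b* (-0.67, SE 0.13) passed 0.01 but lay just under the fold threshold of 0.7, which each of them passed in some fits with a pool left out (5 to 7 DEGs). With them 7 of the 9 genes passed 0.05, against 44.1% of all genes. *junba* had a log2 fold change of -0.14 (SE 0.15, edgeR adjusted p = 0.48) and *fosl1a* one of 0.47 (SE 0.38, edgeR adjusted p = 0.34).

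**Figure D4:**
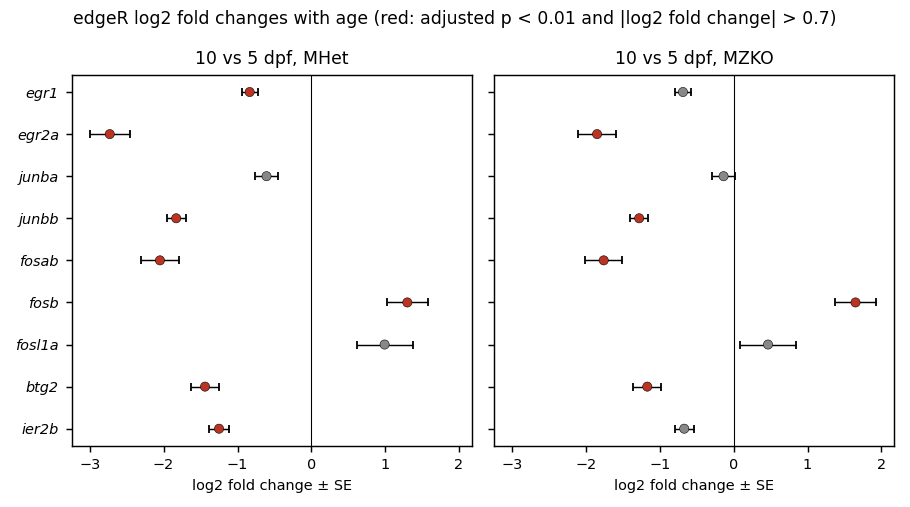
Log2 fold changes of the 9 genes from 5 to 10 dpf in MHet and MZKO larvae, with bars of 1 SE from edgeR. Red points are DEGs, 7 in MHet and 5 in MZKO, and among them *fosb* is the 1 gene to the right of 0 (1.30 and 1.65).

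The other immediate early genes were mixed over the same interval. In MHet 11 of the 61 rose and 7 fell, against 13.9% of all genes called. In MZKO 11 rose and 4 fell, against 19% of all genes. *ier2a*, the paralog of *ier2b*, fell from 78.1 ± 9.53 to 20.2 ± 2.54 CPM in MHet and from 65.1 ± 1.3 to 27.1 ± 1.64 in MZKO (log2 fold changes -1.95 and -1.27, edgeR adjusted p = 3.2e-11 and 2.1e-08). *egr4*, another Egr gene, fell by 1.61 and 1.11 (edgeR adjusted p = 4.1e-07 and 2e-05), and *klf2b* fell as well (-2.18 and -2.06, edgeR adjusted p = 2.1e-10 and 4.2e-10). The AP-1 gene *jund* rose in MHet (0.99, edgeR adjusted p = 1.4e-08). In MZKO the MAP kinase phosphatase gene *dusp5* rose by 1.41 (edgeR adjusted p = 6.1e-08), the antiproliferative gene *tob1a* by 0.74 (edgeR adjusted p = 2.5e-07) and *fosaa* by 0.80 (edgeR adjusted p = 4.4e-05).

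The shares of all genes called with age, 13.9% in MHet and 19% in MZKO, stand beside every count of this paragraph. Among the 38 upstream regulators, 4 rose and 2 fell in MHet, and 2 rose and 1 fell in MZKO. The CREM genes *crema* and *cremb* rose in both (log2 fold changes 1.19 and 0.87 in MHet, 1.12 and 1.36 in MZKO). The SRF genes *srfa* (0.71) and *srfb* (0.93) rose in MHet, *creb1a* (-0.71) and the kinase gene *raf1a* (-1.22) fell in MHet, and *atf2* (-0.72) fell in MZKO. Of the 12 tested stress axis genes, 6 rose and 1 fell in MHet, and 6 rose and 2 fell in MZKO. *per1a* (2.67 and 2.99) and *fkbp5* (2.46 and 2.48) rose in both. Of 14 heat shock genes, 4 rose in MHet and 8 in MZKO and none fell, among them *hsp90aa1.1* (2.22 and 1.55). Exocrine pancreas markers moved with age too, with 10 of 12 called higher at 10 dpf in MHet and 8 in MZKO, their sum going from 897 to 2240 CPM at 5 dpf to 7590 to 9840 CPM at 10 dpf in MHet. All 10 erythrocyte markers had a sum of 280 to 328 CPM at 5 dpf and 134 to 167 at 10 dpf in MHet. Of the 7 tested, 5 were called lower in MHet and 4 in MZKO. Of 9 liver markers 7 were called lower in MZKO, the sum going from 1700 to 3050 CPM at 5 dpf to 333 to 681 CPM at 10 dpf, and none was called in MHet. Of 14 skeletal muscle markers 6 were called lower and 1 higher in MZKO (70500 to 81900 CPM at 5 dpf, 43900 to 49300 at 10 dpf). Of 10 macrophage markers 6 were called higher in MHet (32.5 to 35.9 CPM at 5 dpf, 47.2 to 72 at 10 dpf), and 4 higher and 1 lower in MZKO. The part of these markers in the changes with age was not tested.

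Whether the effect of the zygotic genotype differed between the ages was tested by an interaction in the fit of 21 pools. None of the 9 genes was a DEG by this test, against 3.6% of all genes (343 and 570 in the positive and negative directions). At an unadjusted p under 0.05 there were 4 of the 9, against 7378 of all 25346 genes, and DESeq2 called 0. An adjusted p of 0.05 was passed by 2 genes, against 14.1% of all genes. They were *ier2b*, whose log2 fold change of MZKO against MHet was -0.35 at 5 dpf and 0.23 at 10 dpf (difference 0.58, SE 0.18, edgeR adjusted p = 0.033), and *junbb*, at -0.16 and 0.40 (difference 0.56, SE 0.17, edgeR adjusted p = 0.034). With any of the 12 pools left out in turn, *junbb* passed 0.05 in 5 fits and *ier2b* in 4. The highest adjusted p among the others was 0.10 for *junbb*, without MZKO pool 2 of 10 dpf, and 0.096 for *ier2b*, without MHet pool 3 of 5 dpf. The difference was 0.88 for *egr2a* (SE 0.38, edgeR adjusted p = 0.12) and 0.47 for *junba* (SE 0.21, edgeR adjusted p = 0.15), and 8 of the 9 were above 0. All 4 groups enter this test, and neither age and batch nor, at 10 dpf, housing and genotype can be told apart in it.

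In 6 of the 7 groups 1 pool was the lowest in 7 or 8 of the 9 genes. ZKO pool 3 was the lowest of its group in 8 genes, Het pool 1 in 8, MHet pool 2 of 5 dpf in 8, and WT pool 3 in 7. WT pool 2 was the highest of its group in 7 genes and Het pool 2 in 8. At 10 dpf, pool 3 was the lowest in 7 genes in MHet and in 7 in MZKO. MZKO at 5 dpf was the exception, its 3 pools being the lowest in 4, 3 and 2 genes.

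As a description of this, deviations of log2 CPM from the group mean were correlated between the genes over the 15 pools of 5 dpf, which are not independent of each other since 3 pools share each mean. Of the 36 pairs, 34 had a positive correlation, with a median r of 0.55, while the median r of the 9 genes with all other tested genes was 0.0019. The closest pairs were *junbb* with *fosab* (r = 0.94), *fosab* with *btg2* (0.88) and *junbb* with *btg2* (0.80). In these 15 pools *fosb* was the most loosely tied, with a median r of 0.29 (from -0.01 with *egr2a* to 0.55 with *junbb*). Without it the median of the other 28 pairs was 0.59. Over the 15 pools as such, group differences included, the median r of *fosb* with the other 8 genes was -0.38. With deviations over all 21 pools, the r of *fosb* ran from 0.15 with *egr1* to 0.63 with *fosab*. That of *egr1* reached lower there, from -0.07 with *junba* to 0.69 with *ier2b*. Pools also share their library and depth, and the part of these in the correlations was not tested.

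**Figure D5:**
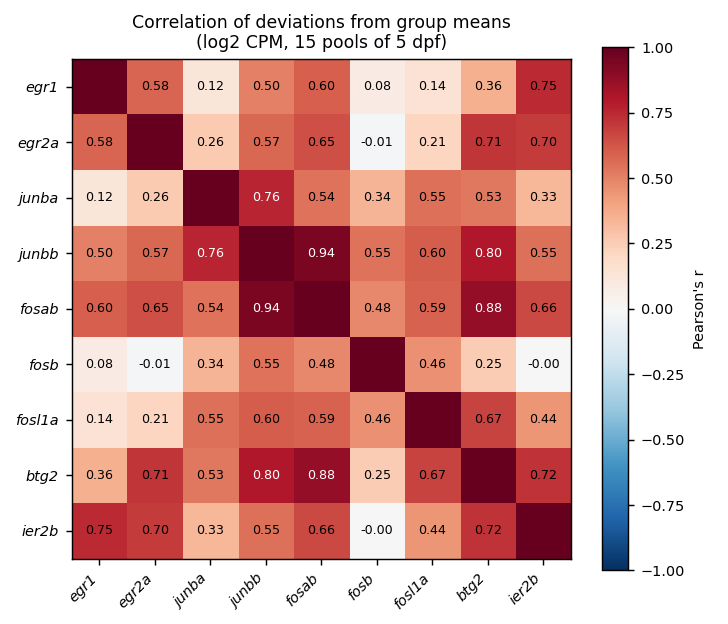
Pearson's r between pairs of the 9 genes, from the deviations of log2 CPM from each group's mean in the 15 pools of 5 dpf. The block of *junbb*, *fosab* and *btg2* reads 0.80 to 0.94, and the row of *fosb* reads -0.01 to 0.55.

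Outside the 9 genes, those whose log2 CPM over the same 15 pools was most like the mean z score of the 9 were *tgif1* (r = 0.90), a homeobox repressor gene of TGF-β signalling, *ier2a* (0.89), *irx2a* (0.89), *tab3* (0.88), *bhlhe23* (0.88), *cebpb* (0.87), *irx4a* (0.86), *auts2a* (0.85), *tfap2b* (0.85) and *tcima* (0.85). Within groups the correlation was 0.86 for *tgif1* and 0.87 for *cebpb*, but 0.28 for *tfap2b*. *cebpb*, like the 9 genes a transcript that is induced early, had 57.3 ± 3.52 CPM in Het and 79.1 ± 5.34 in MHet at 5 dpf (SD, n = 3 each). *egr2a* alone was most like *foxq1a* (r = 0.90, and 0.78 within groups), a forkhead gene, followed by *tcima* (0.88), *tfap2b* (0.88) and *capzb* (0.88).

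For *fosb* the search was added after its values were seen. Its pattern over the 15 pools was closest to those of *si:ch73-182a11.2* and *zgc:122979* (r = 0.96 each). Among the 10 closest were also *npas4a* (r = 0.95, and 0.74 within groups), *cremb* (0.93) and the lens genes *crygm2e* (0.94) and *lim2.4* (0.92). Correlations over the 15 pools carry the differences between groups, and no p is given for them. With age *npas4a* did not follow the rise of *fosb*. Its means at 5 and 10 dpf were 42.2 and 38.8 CPM in MHet, and 37.1 and 41.1 in MZKO.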

How the data were processed

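RNA from pools of whole larvae was made into directional polyA libraries and sequenced. The authors trimmed the reads, removed bases of low quality, aligned them to GRCz11 (danRer11) with HISAT2 and assigned them to Lawson annotation genes by featureCounts. The deposited values are raw counts per gene, with no normalization. How featureCounts treated strand and multi-mapping reads is not given in the sources used here, so reads of close paralogs (*fosaa* and *fosab*, *junba* and *junbb*, *ier2a* and *ier2b*) and of overlapping genes could be shared or lost. Replicate chi-square values per gene were 6.58 to 24.6, so that replicate pools differed beyond counting error.

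Counts were filtered with filterByExpr, scaled by TMM and fitted with robust quasi-likelihood models in edgeR 4.0.16 (R 4.3.3), in 15 pools at 5 dpf, 6 at 10 dpf, or all 21 for age and interaction. All 9 genes passed each filter. P-values are two-sided and Benjamini-Hochberg adjusted over all tested genes, and thresholds follow the methods of the study. The SE is the log2 fold change divided by the root of the F statistic, so it restates the test. Correlations used log2 CPM with a prior count of 2. The 9 genes and all lists were chosen with earlier results of these data known. Listed genes are named where a tested comparison called them, at most 8 per list with the smallest p. The flagged results also name every interaction DEG of the immediate early, upstream, stress axis and heat shock lists, which adds *myca* and *gadd45ab*. Others are named as chosen after their values were seen. The fits were tested on simulated counts that kept each gene's observed mean and dispersion, in which a random set of genes was changed by a known fold. Alternatives were DESeq2 1.42.0, its size factors in edgeR, no filter, at least 10 counts in every pool, the replicate number as a block, an adjusted p of 0.05 alone, other sets of pools in the fit, and each pool left out. No fit dropped or imputed a pool otherwise. A search of promoter motifs was not run, and no sequence is shown. Figures were drawn with matplotlib 3.10.9.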

Additional observations from a re-analysis of the deposited data

Results flagged for a closer look

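MZKO against MHet at 10 dpf was set against the same contrast at 5 dpf by an interaction (edgeR, 21 pools), where neither age and batch nor, at 10 dpf, housing and genotype can be told apart. Over all genes 913 were DEGs of this test, 3.6% of those tested. Among the 9 immediate early genes those that passed an adjusted p of 0.05 were *ier2b*, with a difference of 0.58 on the log2 scale (edgeR adjusted p = 0.033), from -0.35 at 5 dpf to 0.23 at 10 dpf, and *junbb*, with a difference of 0.56 (edgeR adjusted p = 0.034), from -0.16 to 0.40. Both are under the fold threshold for a DEG, and neither effect passed an adjusted p of 0.05 at either age in the edgeR fits by age (15 and 6 pools), although some alternatives of these fits gave a lower p.

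DEGs of the interaction were also 4 of the 61 other immediate early genes and 2 of the 38 upstream regulators, and none of the stress axis and heat shock genes. The marker lists held further DEGs of it, with 1 neuron marker higher and 3 skeletal muscle, 1 liver and 1 vascular marker lower, which are not named here. The log2 fold changes of the Myc genes *myca* (0.77, edgeR adjusted p = 0.0021, from -0.39 to 0.38) and *mycb* (0.76, edgeR adjusted p = 0.0042, from -0.47 to 0.29) went from below to above 0. So did those of *gadd45ab*, a growth arrest and DNA damage gene (0.93, edgeR adjusted p = 0.0068, from -0.51 to 0.42), and *dusp5* (0.83, edgeR adjusted p = 0.0092, from -0.65 to 0.18). The upstream regulators *atf2* (-0.87, edgeR adjusted p = 0.0075, from 0.64 to -0.22) and *srfa* (-0.73, edgeR adjusted p = 0.0065, from 0.55 to -0.18) moved the other way.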

How the results depend on the processing

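The count of DEGs among the 9 genes was 0 under every alternative run for MZKO against MHet at 5 dpf and at 10 dpf. In MHet against Het it was 2, and it was 5 with an adjusted p under 0.05 alone, 1 with all 21 pools in the fit (*egr2a* lost, edgeR adjusted p = 0.011), 1 with only the compared groups (*fosb* lost, edgeR adjusted p = 0.023) and 0 to 2 with a pool left out. For the interaction it was 0, 0 to 0 with a pool left out, and 2 with an adjusted p under 0.05 alone. It stayed at 6 to 9 for age in MHet and at 5 to 7 in MZKO. Leaving out WT pool 3, an alternative chosen after seeing the data, changed no count. DESeq2 kept both calls of MHet against Het (adjusted p = 0.00092 for *egr2a* and 3.5e-07 for *fosb*).

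With 1 pool left out, some uncalled log2 fold changes turned sign. In MZKO against MHet at 5 dpf these were *junba* (-0.20 to 0.093), *fosab* (-0.14 to 0.022), *fosb* (-0.52 to 0.14) and *fosl1a* (-0.0066 to 0.27). At 10 dpf they were *egr1* (-0.10 to 0.10), *fosab* (-0.028 to 0.51), *fosb* (-0.069 to 0.31) and *btg2* (-0.11 to 0.34). The others were *fosab* in MHet against Het (-0.064 to 0.22), *junba* (-0.34 to 0.042) and *fosl1a* (-0.22 to 0.77) with age in MZKO, and *fosb* in the interaction (-0.0081 to 0.65).

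Over all tested genes, the deviations of 33 same-numbered pairs correlated at -0.14 to 0.11, with 1 over 0.1. The main fits did not pair pools by number. The correlations did not settle pairing at 10 dpf, where pool 3 was the lowest in 7 of the 9 genes in both groups. At that age the replicate block gave 365 DEGs over all genes in place of 10. With the replicate block *egr2a* had a log2 fold change of 0.91 (edgeR adjusted p = 0.0045) and *fosb* -1.33 (edgeR adjusted p = 0.0099) in MHet against Het, and no count among the 9 genes changed.

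Over all genes, MZKO against MHet at 10 dpf gave 10 DEGs, but 650 with DESeq2, 164 with no filter, 365 with the replicate block, 545 with all 21 pools in the fit and 4 to 212 with a pool left out (212 without MHet pool 2). The interaction gave 913, 1462 with DESeq2 and 469 to 1337 with a pool left out (469 without MHet pool 1 of 5 dpf). MZKO against MHet at 5 dpf gave 220, and 114 without MHet pool 1. Among the other immediate early genes DESeq2 called 2 in place of 0 at 10 dpf and 7 in place of 4 in the interaction. The causes were not tested. Depth limits *egr2a* most, with 13 to 212 reads per pool. No other scaling moved the median of all genes by over 0.1.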
